A study of Mus musculus with 2 samples.

Results

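Otx2, Pou3f1, Sall2, Zic2, Zic5, Sox3 and Fgf5 were examined in E14 mouse embryonic stem cells after depletion of Sin3a. These 7 genes were listed by name as factors of the formative state, and each is represented by every probe set that the platform annotation assigns to it alone, which gave 12 of the 45101 probe sets on the array. E14 is an established embryonic stem cell line, grown here on gelatin in medium with serum and leukemia inhibitory factor. Per the labels, the shCtrl group carried a lentivirus with a non-targeting shRNA and the shSin3a-1 group a lentivirus with 1 shRNA against Sin3a, both were selected with puromycin, and total RNA was hybridised to 1 array per group, called the control and the knockdown array here. No time after infection is given in the sources used here. With 1 array per group and 1 shRNA, no difference has a replicate check, no p-value or SD over samples was computed, and an effect of Sin3a cannot be told apart from one of this shRNA or of this pair of cultures.

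Formative pluripotency is the stage between the naive state of the preimplantation epiblast and the primed state that responds to germ layer signals. The homeodomain factor OTX2 works with OCT4 at enhancers that open as naive cells leave their ground state, and POU3F1 (OCT6), SALL2, ZIC2, ZIC5, SOX3 and the secreted ligand FGF5 rise over the same transition. Serum and leukemia inhibitory factor hold most cells in or near the naive state, with a fraction of cells moving in and out of it. SIN3A is the scaffold of a complex that carries the histone deacetylases HDAC1 and HDAC2 and is brought to genes by DNA-binding proteins such as MXD factors. In bulk RNA, fewer cells that express a gene and less RNA per cell cannot be told apart.

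Sin3a itself, the target of the shRNA, was at 3072 on the control and 534 on the knockdown array, a log2 difference of -2.41, and 3 of 3 probe sets were lower. On the same 2 arrays Otx2 and Sall2 were lower in shSin3a-1, each about 3-fold. The brighter probe set of Pou3f1 and the brighter ones of Zic5 were lower by less than 2-fold, and the dimmer one of Pou3f1 was higher. Zic2 had nearly equal signals, Sox3 was higher by less than 2-fold, and Fgf5 lay in the background on both arrays. A value was treated as background below the 40th percentile of its array (46.8 on the control and 41.7 on the knockdown array). A probe set was kept if either array reached its 60th percentile (130.6 and 126.0), which 8 of the 12 probe sets and 6 of the 7 genes did. Sall2 and the kept probe set of Pou3f1 passed through shCtrl alone, so their place among the kept probe sets already favours a lower value in shSin3a-1. The other 6 kept probe sets passed on both arrays. Signals are quoted as deposited, on a linear MAS5 scale, and each log2 difference is shSin3a-1 minus shCtrl after the arrays were centred on their log2 medians, which raises every difference by 0.11. Signals of different probe sets depend on their probes, and the levels of different genes are not ranked against each other.

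Sequence upstream of the transcription start is shown for Otx2 and Sall2, which were lower past 2-fold, and for Zic5, a neighbour of Zic2 that stayed within 2-fold. The windows are the 250 bases before the outermost RefSeq start of each gene in build GRCm38.p6, all on the minus strand, at chr14:48667645-48667894 for Otx2, chr14:52328671-52328920 for Sall2 and chr14:122465659-122465908 for Zic5. They run 5′ to 3′, and capitals mark CpG dinucleotides.
Otx2: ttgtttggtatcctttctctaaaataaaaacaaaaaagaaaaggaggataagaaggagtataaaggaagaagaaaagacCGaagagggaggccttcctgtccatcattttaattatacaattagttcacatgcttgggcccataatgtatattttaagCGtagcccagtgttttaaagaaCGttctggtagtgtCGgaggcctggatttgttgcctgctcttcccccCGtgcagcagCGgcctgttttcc
Sall2: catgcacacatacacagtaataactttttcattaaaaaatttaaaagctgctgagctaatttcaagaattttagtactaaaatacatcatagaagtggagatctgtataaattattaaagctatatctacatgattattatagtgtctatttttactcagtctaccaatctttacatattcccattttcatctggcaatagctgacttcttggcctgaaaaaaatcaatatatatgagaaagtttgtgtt
Zic5: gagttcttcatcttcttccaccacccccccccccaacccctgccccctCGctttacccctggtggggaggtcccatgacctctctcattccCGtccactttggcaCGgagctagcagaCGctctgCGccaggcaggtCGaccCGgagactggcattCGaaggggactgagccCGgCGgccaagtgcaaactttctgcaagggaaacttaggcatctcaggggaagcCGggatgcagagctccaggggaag
The Otx2 window held 6 CpG dinucleotides, the Sall2 window 0 and the Zic5 window 11. The median was 6 over 32851 windows of 27025 genes, which were taken before all listed starts and not the outermost alone. The members lower past 2-fold thus shared no CpG-rich outermost window. The windows before the other RefSeq starts of Otx2 held 8, 14 and 9 CpG, and which start is used was not measured. Sall2 has a second RefSeq start inside the gene, and the 250 bases before it were richer in G and C (64.4%, against 28% before the outer start) and held 6 CpG. The Fgf5 window held 24 CpG, more than the members above. Windows for 4 of the 7 members matched by symbol, and Pou3f1, Zic2 and Sox3 had no entry.

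Short motifs were searched on both strands of the 8 windows of these 4 genes. The E-box CACGTG, which MYC, MAX and MXD proteins bind, was in none of them and in 6.02% of all windows. The octamer ATGCAAAT, which POU factors bind, was in none and in 1.60% of all windows. The GC box GGGCGG was in the Fgf5 window only, where it lay on the opposite strand, and in 32.7% of all windows. The motif TAATCC, which OTX2 and related homeodomain proteins bind, was in 1 window of Otx2 itself and in 6.25% of all windows. It lay on the opposite strand before the third of the 4 RefSeq starts of Otx2, within the 30 bases at chr14:48665303-48665332 (GRCm38.p6, minus strand), where capitals mark it.
Otx2 motif: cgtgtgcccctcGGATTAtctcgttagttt
None of the matches overlapped. A match of letters is a description and not a bound site, and these windows leave out enhancers.

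Otx2, the homeodomain factor, was measured by a single probe set. It read 1459 on the control array and 443 on the knockdown array. The shSin3a-1 value remained above the 75th percentile of its array, so both values were clear of background. The log2 difference was -1.61, or 3.05-fold lower, and 32.7% of the control level. Otx2 was the 26th lowest of 9782 kept genes, each taken at its brightest probe set. Under other scalings its log2 difference ran from -1.74 to -1.72. At this brightness differences of this size were scarce: of 2014 kept genes with a control signal within 1.5-fold of that of Otx2, 14 (0.695%) were lower past 2-fold, and 3 of them had a lower difference than Otx2. The suffix of the probe set marks probes shared among transcripts, and no second probe set of Otx2 could be set beside it.

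**Figure D1:**
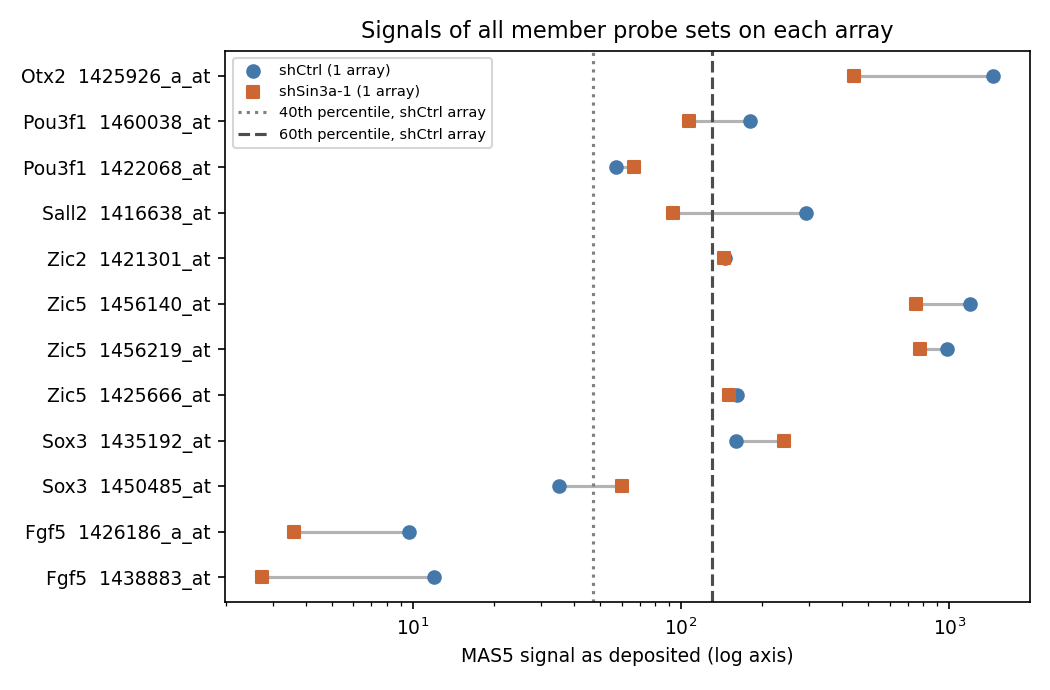
Deposited MAS5 signals (horizontal log axis) of the 12 probe sets of the 7 members (rows) on the shCtrl array (circles) and the shSin3a-1 array (squares), joined by a line; vertical lines mark the 40th and 60th percentile of the shCtrl array. Otx2 lies at 1459 and 443, both above the lines, Sall2 ends below the 60th percentile, and both Fgf5 probe sets lie under the 40th percentile on both arrays.

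Sall2, a zinc finger factor of the spalt family, read 292 on the control and 93.1 on the knockdown array in its only probe set. The shCtrl value was above the 60th percentile and the shSin3a-1 value below it but above the 40th. The log2 difference was -1.54, or 2.91-fold lower, the 35th lowest of the kept genes. Sall2 lay in a dimmer range, where 2-fold differences were more frequent. Among 2690 kept genes that peaked from the 60th up to the 75th percentile, 5.13% were lower past 2-fold, and among 4062 genes that peaked from there up to the 90th percentile the share was 1.21%. With an offset of 50 added before log2, which damps dim probe sets, Sall2 was at -1.20 and Otx2 at -1.55.

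Pou3f1, the POU domain factor OCT6, had probe sets that differed in sign. The kept one read 181 on the control and 107 on the knockdown array, which is -0.64 on the log2 scale. The other read 57.3 and 66.5, which is 0.32, and did not reach the filter on either array. The mean of both was -0.16, so the direction for Pou3f1 rests on which probe set is read.

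Zic2 and Zic5 encode zinc finger factors and lie next to each other on chromosome 14. Zic2 read 145.2 on the control and 144.7 on the knockdown array in its only probe set. The centred log2 difference of 0.10 became -0.0050 with the deposited scaling, so its sign is set by the scaling. Zic5 was measured by 3 probe sets, all kept. The brightest read 1193 and 752 (-0.56), the next had 979.5 and 775 (-0.23), and the dimmest had 161 and 151 (0.01, and -0.09 as deposited). The probe sets that measured Zic5 well above background were thus lower in shSin3a-1, by 1.47-fold and 1.17-fold, and the dimmest showed almost no difference. The SD between the 3 differences was 0.29, against 0.39 between kept probe sets of 1 gene over 4413 genes. This spread describes how probe sets of 1 gene disagree on the same pair of arrays. It does not measure variation between arrays or cultures, so no difference of Zic5 was judged against it.

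Sox3, a SOXB1 factor close to Sox2, was the member with a higher signal in shSin3a-1. Its kept probe set read 161 on the control and 243 on the knockdown array, a log2 difference of 0.71 and 1.63-fold. The second probe set had 34.9 and 60.3 and did not reach the filter, and its shCtrl value was at background. Both Sox3 probe sets were higher, and neither passed 2-fold.

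Fgf5, the ligand that marks the postimplantation epiblast, was not measurable. Its probe sets read 9.68 and 11.99 on the control array and 3.59 and 2.73 on the knockdown array. The highest of these lay at percentile 15.5 of its array, and no fold is given.

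Of the 8 kept member probe sets, 2 were lower past 2-fold (the background was 1.84% of 17086 kept probe sets) and 0 were higher (background 4.82%). By brightest probe set, 2 of 6 kept genes were lower past 2-fold, against 2.01% of all 9782 kept genes, 0 were higher, against 2.43%, and 4 were within 2-fold. Below 0 lay 4 of 6 members, against 41.2% of kept genes; as deposited the figures were 5 of 6 and 54.2%. Over the 6 kept members the median was -0.60, beside 0.07 over all kept genes, and -0.71 beside -0.03 as deposited. It was -0.21 when all measured probe sets of each gene were averaged, and -1.08 over the 2 genes left by a filter at the 75th percentile. The differences ran from -1.61 for Otx2 to 0.71 for Sox3, and 2 genes account for the counts past 2-fold. Because Sall2 and Pou3f1 passed the filter only through shCtrl, the counts and the median describe the members and support nothing further.

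**Figure D2:**
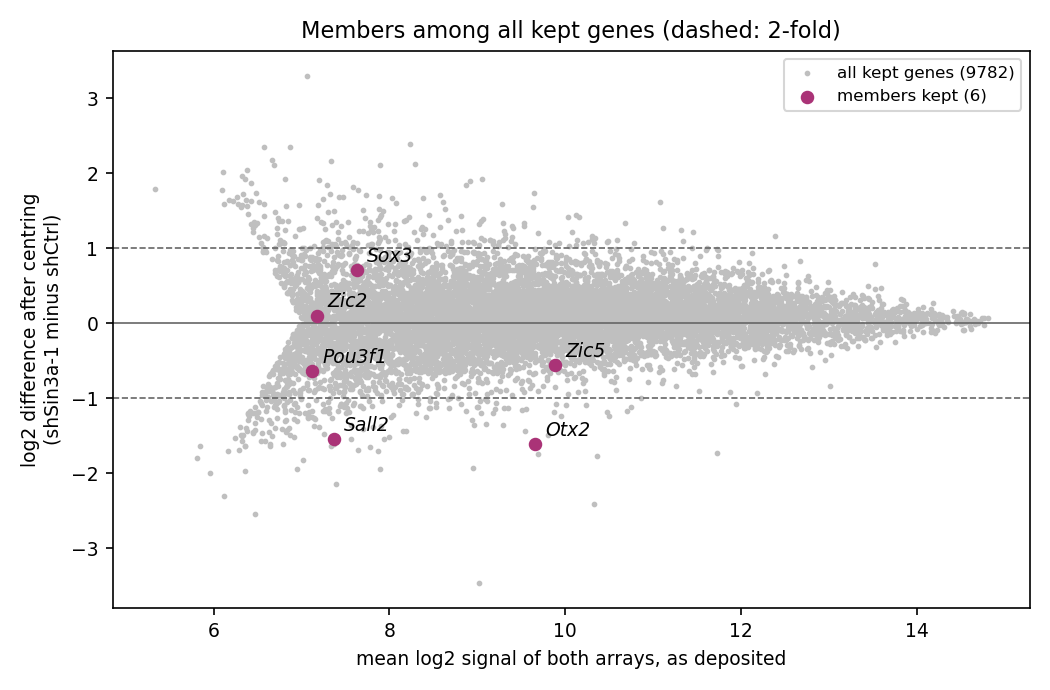
Log2 difference after centring (vertical axis) against the mean log2 signal of both arrays as deposited (horizontal axis) for 9782 kept genes (grey) and the 6 kept members (coloured, named). Otx2 at -1.61 lies at a brightness where few genes pass 2-fold, whereas Sall2 at -1.54 lies among dim genes with a wider spread; Sox3 at 0.71 is the highest member.

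**Figure D3:**
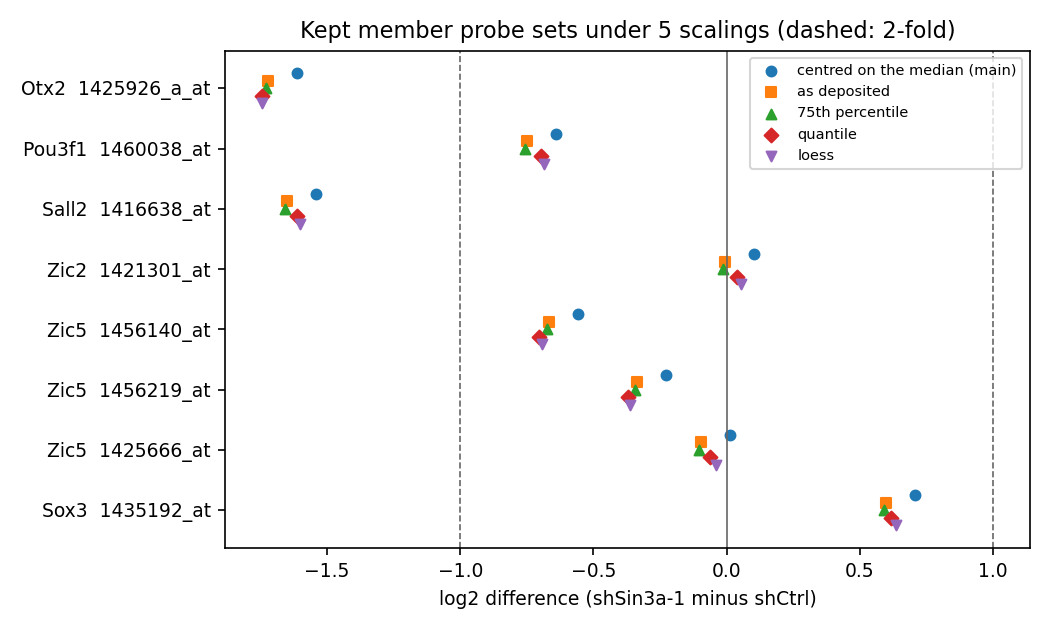
Log2 difference (horizontal axis) of the 8 kept member probe sets (rows) after 5 ways of scaling the arrays (symbols). Otx2 and Sall2 stay beyond the 2-fold line under each scaling, and the dimmest Zic5 probe set and Zic2 change sign.

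Relatives of the members gave 5 kept genes, none past 2-fold by brightest probe set. Sall4, a spalt factor of the pluripotency network, read 8645 and 8071 on the control and knockdown arrays (0.01), and its second probe set was at 0.96. Sall1 had 2586 and 2196 (-0.13), with 0.71 in its second probe set. No probe set of Sall1 or Sall4 was lower past 2-fold, unlike that of Sall2; the difference between these genes was not tested. The SOXB1 factor Sox2 had 10033 and 10874 (0.22). Sox1, a neural SOXB1 factor, had 235 and 120 (-0.86) and passed the filter through shCtrl alone. Its sign was opposite to that of Sox3. Fgf4, the FGF ligand of naive cells, had 2802 and 2489 (-0.06), and its 4 kept probe sets ran from -0.20 to 1.00. Otx1, Crx, Pou3f2, Pou3f3, Pou3f4, Sall3, Zic1, Zic4 and Fgf6 did not reach the filter.

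Other genes of the formative and primed states differed in both directions. Of 13 such genes, all kept, 2 were lower and 1 was higher past 2-fold, 7 lay below 0, and the median was -0.02 (-0.13 as deposited). Over all 9782 kept genes the shares were 2.01% lower, 2.43% higher and 41.2% below 0. Fgf15, an FGF ligand, read 291 on the control and 119 on the knockdown array (-1.18) in its single probe set. Grhl2, an epithelial factor of the formative state, had 240 and 98.7 (-1.17), and a second probe set under the filter was at -0.34. Both passed the filter through shCtrl alone. They peaked from the 60th up to the 75th percentile, where 5.13% of kept genes were lower past 2-fold. Lef1, a nuclear partner of beta-catenin, had 77.3 and 150 (1.06, and 0.95 as deposited) and passed through shSin3a-1 alone. Tcf15, a helix-loop-helix factor of cells primed to differentiate, had 1657 and 2931 (0.93), well above background on both arrays and opposite in direction to Otx2. Foxd3 (0.56), Etv4 (0.33), Dnmt3b (0.31) and Utf1 (0.24) were higher and Etv5 (-0.19), Cdh2 (-0.24), Tcf7l1 (-0.24) and Tead2 (-0.02) lower, all within 2-fold in the brightest probe set. Cdh2 passed the filter through shCtrl alone. Other kept probe sets were at 1.16 for Etv4, at 0.31 and 0.64 for Etv5 and at 0.43 for Tcf7l1, so that Etv5 and Tcf7l1 have no single direction. The de novo methyltransferase Dnmt3a was at -0.26, and its 5 kept probe sets ran from -1.43 to -0.16, all below 0. Among genes of this list with several kept probe sets, Dnmt3a was the one whose kept probe sets all shared the direction of Otx2.

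**Figure D4:**
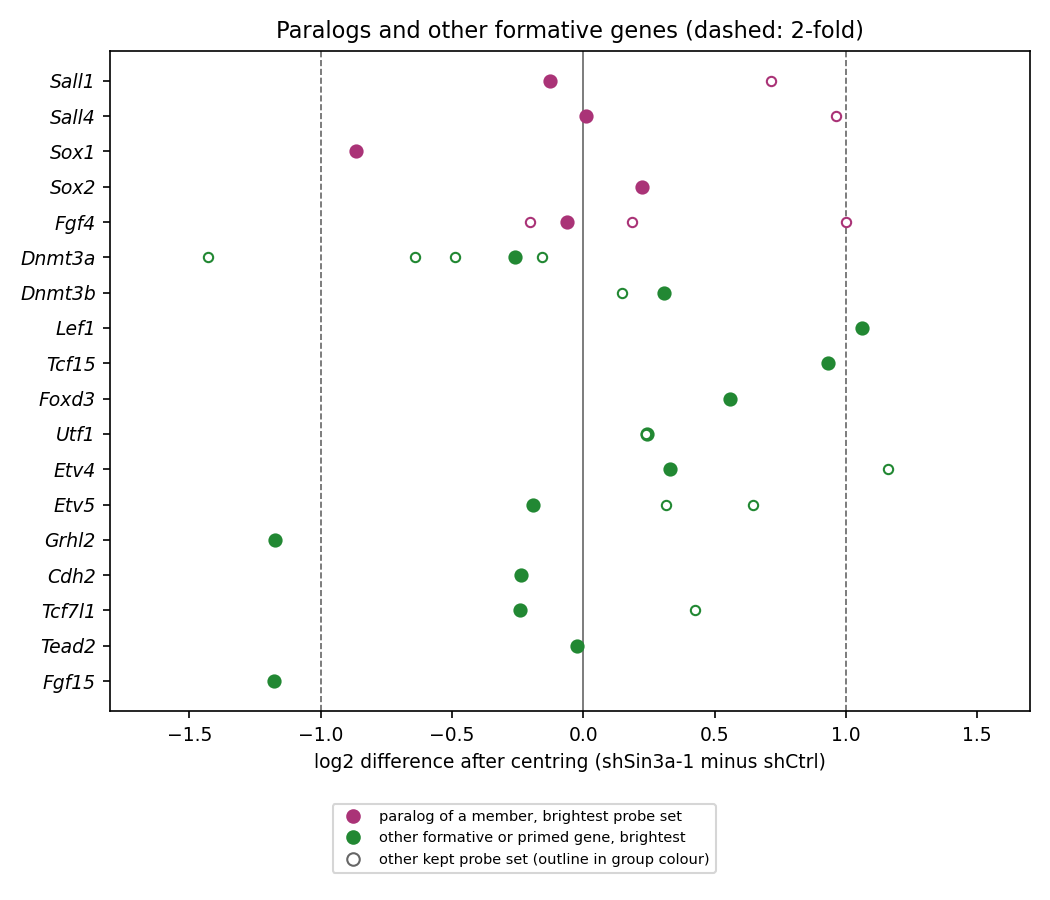
Log2 difference after centring (horizontal axis) of each kept probe set of paralogs of the members and of other formative or primed genes (rows); filled points are the brightest probe set of a gene and open points its other kept probe sets. Fgf15 at -1.18 and Grhl2 at -1.17 pass 2-fold on the lower side and Lef1 at 1.06 on the higher side, and 9 of the 15 dimmer probe sets lie to the right of the brightest of their gene.

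The states on either side were read from the same arrays, with counts and medians by the brightest probe set of each gene. For the counts below, the shares over all 9782 kept genes were 2.01% lower and 2.43% higher past 2-fold. All 16 core and naive pluripotency genes were kept, 15 were within 2-fold, and the median was 0.07 (-0.04 as deposited). Kept probe sets of Esrrb ran from -0.61 to 1.18, with -0.15 in the brightest. The homeobox gene Gbx2 was higher, at 1276 on the control and 3647 on the knockdown array (1.62). Gbx2 and Otx2, whose products oppose each other at the midbrain-hindbrain boundary, differed by similar sizes in opposite directions here. A link between them was not tested. Of 11 neuroectoderm genes on the array 3 were kept: Sox11, a SOXC factor, was higher (282 and 998, 1.93, with 5 of 5 kept probe sets from 1.61 to 2.07), and Sox1 (-0.86) and Nes (-0.41), which both passed through shCtrl alone, were lower within 2-fold. None of 9 primitive streak genes reached the filter. In the Nodal and Activin list, 7 of 9 kept genes were within 2-fold. The feedback inhibitors Lefty1 (1552 and 511, -1.49) and Lefty2 (1000.1 and 243, -1.93) were lower, and Nodal itself was at -0.07. Kept probe sets of Foxh1 ran from -0.74 in the brightest to 1.61, and those of Acvr2b from -0.65 in the brightest to 0.25. Of 10 kept genes of FGF and ERK signalling 3 were higher past 2-fold, Fos (1.36), Phlda1 (1.02) and the ERK phosphatase Dusp6 (1.01), the last 2 of them under 2-fold as deposited (0.91 and 0.90); Fos passed the filter through shSin3a-1 alone.

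The kept genes most like Otx2 were taken by log2 difference, over these 2 arrays, among the 2014 genes of similar shCtrl signal. Next above it came Lefty1 (-1.49), Apela (1275 and 437, -1.44), which encodes a peptide ligand of the apelin receptor, and Nfatc4 (1038 and 375, -1.36), a calcineurin-regulated factor. Next below it came Pla2g1b (1570 and 434, -1.75), a secreted phospholipase, Lefty2 (-1.93) and the cyclin gene Ccnd2 (1788 and 151, -3.45). Only 3 candidates lay below Otx2, so Ccnd2 is included at a distance of 1.84. Likeness over a single pair of arrays ranks a difference and nothing more.

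Of the 7 members, 4 share a chromosome, which their choice did not use: Otx2, Sall2, Zic2 and Zic5 all lie on chromosome 14 in the RefSeq table. With the members left out, 10 of 342 kept genes of chromosome 14 were lower past 2-fold (2.92%, against 2.01% over all kept genes). The nearest protein-coding neighbours differed in both directions. Beside Otx2, Exoc5 had 1865 and 1907 (0.14) and Ap5m1 had 425 and 711 (0.85), while Peli2 (114 and 59.7, -0.82) and Tmem260 (93.5 and 76.1, -0.19) on the other side were lower but did not reach the filter. Beside Sall2, Mettl3 had 2662 and 1929 (-0.36) and Tox4 had 1484 and 1398.5 (0.02). Clybl (-0.37) and Pcca (-0.28), which flank the Zic2 and Zic5 pair, were slightly lower, as was the brightest probe set of Zic5. Of 24 neighbours of all members, taken as the nearest 2 on each side, 10 were kept, and 0 of these passed 2-fold in either direction. With 2.01% of all kept genes lower and 2.43% higher past 2-fold, a count of 0 among 10 is near those shares. No neighbour of Sox3 or Fgf5 was kept.

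Markers of other cell types also differed between the 2 arrays, in directions that varied by cell type, and are given for that reason. Over all 9782 kept genes, 2.01% were lower and 2.43% higher past 2-fold, and 41.2% lay below 0. Of 11 primitive endoderm markers 8 were kept, all above 0 (median 0.75), with a summed signal over the list of 2197 on the control and 3479 on the knockdown array, while Hnf4a, Gata4 and Foxa2 missed the filter. Of these 8, 5 passed the filter through the knockdown array alone, which favours values above 0. Sox17 was at least 5.10-fold higher, and Pdgfra (1.27) and Amn (1.26) passed 2-fold. Of 10 trophectoderm markers 4 were kept, all below 0 in the brightest probe set (median -0.93), with sums of 3227 and 1827; Tfap2c (-1.14) and Krt18 (-1.12) passed 2-fold, and Cdx2, Eomes, Elf5, Hand1, Krt7 and Gata3 did not reach the filter. A second kept probe set of Gata2 was at 1.04, against -0.19 in its brightest, and Cdx2, a defining factor of these cells, read 8.61 and 70.0. Of 10 fibroblast markers 4 were kept, all below 0 (median -1.08), with sums of 1047 and 598; Mmp2 (-1.10), Pdgfrb (-1.08) and Loxl1 (-1.07) passed 2-fold, and the collagen genes Col1a1, Col1a2 and Col3a1, which define these cells, did not reach the filter on either array. Of these 4, 3 passed through the control array alone, which favours values below 0. The part of these cell types in the values of the members was not tested.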

How the data were processed

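RNA of 1 shCtrl and 1 shSin3a-1 sample was measured on an Affymetrix 3' expression array. The deposited values are linear intensity signals. The submitters' processing notes name MAS5 and Affymetrix Expression Console, with no versions. Both arrays had a trimmed mean of 500.0 after 2% was left off at each end. MAS5 subtracts mismatch signals, so ratios of dim probe sets are unreliable, and the number of arrays limits the precision.

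Probe sets were named from the platform annotation where it gave 1 symbol (34958 of 45101), updated through Entrez identifiers with a RefSeq table of GRCm38.p6 (34754 matched). Log2 signals without 64 control probe sets were centred on each array's median (6.17 and 6.06). The 40th percentile served as a floor, and folds against it are lower bounds. A gene was represented by its brightest probe set; 9782 of 18193 genes were kept. The call was a fixed 2-fold, with no test. Python 3.11.15, NumPy 2.4.6 and pandas 2.3.3 were used, with loess from statsmodels 0.14.6, and the steps were tested on simulated data. Alternatives covered scaling, floor, filter, offset, fold size and the choice of probe sets. The members and lists were chosen with earlier results of these data known. Named were all members, Sin3a, paralogs with a kept probe set, up to 3 genes per list and direction past 2-fold or else the largest difference, and the 3 genes on either side of Otx2 at similar signal; other genes, the motifs and the chromosomal neighbours were chosen after the values were seen.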

Additional observations from a re-analysis of the deposited data

How the results depend on the processing

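Otx2 and Sall2 remained lower past 2-fold under each of the 4 other scalings, the 2 other floors, the looser filter, no filter and the offset. Over the alternatives that kept them, Otx2 ran from -1.74 to -1.55 and Sall2 from -1.66 to -1.20 on the log2 scale. With the filter at the 75th percentile, 3 member probe sets were left and Sall2 dropped out, so the count lower past 2-fold was 1 and the median over the 2 remaining genes was -1.08. At 3-fold the count of lower member probe sets was 1, Otx2, and at 1.5-fold the count of higher ones was 1, Sox3, and that of lower ones 3, with Pou3f1. The shares of all kept probe sets at 1.5-fold and 3-fold were not computed, so these counts have no background beside them. The median was -0.21 when all measured probe sets of a gene were averaged. Zic2 and the dimmest Zic5 probe set changed sign with the scaling. No paired analysis was possible because each group had 1 array. The dim signals of Sall2, Pou3f1, Zic2 and Sox3 limit what can be read from them.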
